A study of Mus musculus with 22 samples.

Results

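The V2R genes, all mouse genes whose symbol begins with Vmn2r and that RefSeq (GRCm38.p6) lists as protein-coding, number 124 among 21887 protein-coding genes. Of these, 123 could be measured, beside 21771 genes in all. The remaining one, Vmn2r122, is placed at chr4:3536-11935, far before the first interval that any list holds on that chromosome (position 3049682), and was not measured. For each gene the window was its body plus 1 kb on each side, and the value was the percent of this window covered by the regions of a library, called its coverage here.

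V2Rs are family C G protein-coupled receptors with a large extracellular domain that binds peptides and proteins. They are made by sensory neurons of the basal layer of the vomeronasal epithelium, where they read pheromones such as exocrine gland-secreted peptides (Esp) and major urinary proteins (Mup), and most of these neurons make a single variable V2R together with a broadly expressed receptor of the Vmn2r1 to Vmn2r7 group (family C of the V2Rs). The genes arose by repeated local duplication, lie in clusters on several chromosomes, and have no known role in fibroblasts. The nuclear lamina, the meshwork of lamins under the nuclear membrane, is known to contact gene-poor, silent chromatin, while A-type lamins also have a pool in the nuclear interior that Lap2alpha binds.

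The libraries are ChIP-seq (immunoprecipitation of a protein with the DNA it is crosslinked to, then sequencing) from mouse dermal fibroblasts that lacked Lap2alpha (KO) or were wildtype (WT), grown in culture and crosslinked with both DSG and formaldehyde. KO cells were profiled for lamin A/C with antibodies 3A6 and E1, for BRG1, the ATPase of SWI/SNF remodellers, and for CHD4, the ATPase of the NuRD complex. WT cells were profiled for the same targets and for Lap2alpha with antibody 1H11. Each was done once on chromatin sonicated for 16 cycles and once for 20 cycles, which gave 8 KO and 10 WT region lists from 18 of the 22 samples. How the KO cells were made, and whether the libraries come from 1 clone or several, is not given in the sources used here, and input libraries were not analysed here. For a given genotype, target, antibody and number of cycles there was 1 library, and no test was run. The 4 matched lamin A/C pairs are not replicates of one condition, and an exact two-sided sign-flip test over them cannot go below p = 0.125. The SD over libraries or pairs given below is the spread over antibodies and sonication lengths, and read depth is unknown. The lists held 7283 regions (KO CHD4 at 20 cycles) to 233745 regions (KO E1 at 20 cycles), and the KO list held more regions in all 4 lamin A/C pairs. As a check of the cell label, 9 of 10 fibroblast genes (Col1a1, Pdgfra, Lum and others) held a BRG1 region in all 4 BRG1 lists, with mean BRG1 coverage of 10.9% to 21.0% over the lists. Such a region was also in 4 of 6 vomeronasal neuron, 2 of 4 keratinocyte, 3 of 3 endothelial and 2 of 3 leukocyte genes. By presence of a region this check thus does not separate cell types. Mean BRG1 coverage was 4.63% to 16.1% for the vomeronasal neuron genes, which overlaps the fibroblast range. Below that range lay the keratinocyte (1.72% to 5.65%), endothelial (2.74% to 10.17%) and leukocyte genes (0.72% to 2.56%). A region list does not measure expression.

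The 123 genes lay on 9 chromosomes, 52 of them on chromosome 7 and 32 on chromosome 17. With a limit of 1 Mb between neighbours they formed 12 clusters of 2 or more genes, holding 117 genes, and 6 genes lay alone. Gene bodies were 8397 to 142676 bp long with a median of 24544 bp, against a median of 17214 bp for all protein-coding genes. Vmn2r1 and Vmn2r2 overlap each other, so their values share DNA, and the windows of Vmn2r88 and Vmn2r89 both reach into Gm7247.

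RefSeq promoters (GRCm38.p6, 250 bases before to 50 after a gene's start) were found for 117 of the 123 genes. They are short of CpG and rich in A and T, with a median of 1 CpG and 38.0% GC, against 7 CpG and 52.7% GC over all 27025 promoters. The copies are alike. The median identity of a V2R promoter to its nearest relative was 99.0% in the largest cluster, that of Vmn2r29 to Vmn2r52 on chromosome 7 (24 genes, chr7:7212996-10176286), where 3 pairs of promoters were identical. Vmn2r41 and Vmn2r40 of this cluster (chr7:8161502-8161801 and chr7:8931353-8931652, both on the minus strand) are shown because they lie in a block of the genome with next to no regions in any library. They differ at 1 base of the 300, in capitals (99.7% identity).
Vmn2r41: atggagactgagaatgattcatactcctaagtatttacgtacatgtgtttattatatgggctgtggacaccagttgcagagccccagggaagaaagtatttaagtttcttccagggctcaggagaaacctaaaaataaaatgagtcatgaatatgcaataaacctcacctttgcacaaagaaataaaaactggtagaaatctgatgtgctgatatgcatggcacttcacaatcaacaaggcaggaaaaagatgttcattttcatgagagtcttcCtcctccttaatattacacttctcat
Vmn2r40: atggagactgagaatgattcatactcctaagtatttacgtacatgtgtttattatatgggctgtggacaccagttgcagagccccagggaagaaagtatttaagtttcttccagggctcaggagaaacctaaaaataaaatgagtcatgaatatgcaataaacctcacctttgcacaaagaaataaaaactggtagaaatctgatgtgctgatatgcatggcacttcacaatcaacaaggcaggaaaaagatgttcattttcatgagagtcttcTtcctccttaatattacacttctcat

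A region touched the promoter of 33 of 117 genes (28.2%) in at least 1 of the 18 lists and of 13 genes (11.1%) in at least 2, against 56.2% and 43.7% of the 27013 genes whose promoters lie within the span of the lists. The promoters touched in 4 or more lists are shown next, with capitals for bases covered in at least 3 lists, since these are the V2R starts where the libraries coincided most. That of Vmn2r29 (chr7:7278240-7278539, minus strand) was covered in 7 lists, 3 for BRG1, 3 for CHD4 and 1 for Lap2alpha, and in no lamin A/C list. Its sequence stands apart from all other V2R promoters, with 62.3% GC, 23 CpG and 46.3% identity to its nearest relative. Those of Vmn2r105 (chr17:20234823-20235122, minus strand), Vmn2r117 (chr17:23479548-23479847, minus strand) and Vmn2r120 (chr17:57545265-57545564, minus strand) were touched in 4 lists each, 4 lamin A/C lists for Vmn2r105 and Vmn2r120 and 3 for Vmn2r117.
Vmn2r29: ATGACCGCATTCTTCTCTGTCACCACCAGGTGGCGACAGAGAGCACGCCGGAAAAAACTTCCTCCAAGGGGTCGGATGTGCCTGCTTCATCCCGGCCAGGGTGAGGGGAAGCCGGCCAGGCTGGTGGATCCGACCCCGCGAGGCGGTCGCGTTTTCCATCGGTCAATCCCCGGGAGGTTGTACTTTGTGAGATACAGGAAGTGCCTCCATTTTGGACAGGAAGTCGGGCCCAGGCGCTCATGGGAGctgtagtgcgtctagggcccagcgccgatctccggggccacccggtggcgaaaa
Vmn2r105: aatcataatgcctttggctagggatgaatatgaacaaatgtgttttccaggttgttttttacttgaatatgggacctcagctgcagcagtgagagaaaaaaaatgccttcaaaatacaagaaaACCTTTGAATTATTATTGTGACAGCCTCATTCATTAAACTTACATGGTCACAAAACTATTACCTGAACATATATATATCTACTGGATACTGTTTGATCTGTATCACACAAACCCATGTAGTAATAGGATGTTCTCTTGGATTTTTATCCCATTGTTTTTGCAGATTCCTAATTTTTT
Vmn2r117: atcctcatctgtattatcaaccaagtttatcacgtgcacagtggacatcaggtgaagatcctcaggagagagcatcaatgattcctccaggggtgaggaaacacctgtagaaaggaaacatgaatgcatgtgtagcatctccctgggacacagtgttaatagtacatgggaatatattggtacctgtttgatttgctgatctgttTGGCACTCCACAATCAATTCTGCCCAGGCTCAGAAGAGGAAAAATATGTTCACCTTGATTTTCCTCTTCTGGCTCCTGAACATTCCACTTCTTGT
Vmn2r120: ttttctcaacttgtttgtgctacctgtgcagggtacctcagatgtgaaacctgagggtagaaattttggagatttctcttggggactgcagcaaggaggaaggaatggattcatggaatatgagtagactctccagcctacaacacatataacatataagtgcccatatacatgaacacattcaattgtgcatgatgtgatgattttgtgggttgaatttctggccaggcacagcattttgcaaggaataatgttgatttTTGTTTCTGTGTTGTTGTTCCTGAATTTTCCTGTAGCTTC

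For Vmn2r105 all 4 lists were those of antibody E1, in KO and in WT at both sonication lengths. For Vmn2r117 they were 3A6 at 16 cycles in KO, 3A6 at both lengths in WT, and CHD4 at 20 cycles in WT. For Vmn2r120 they were E1 at both lengths in KO, and E1 at 20 cycles and 3A6 at 16 cycles in WT. Vmn2r107 was touched in 3 lists (BRG1 at 20 cycles and E1 at 16 cycles in KO, E1 at 16 cycles in WT). Vmn2r14, Vmn2r17, Vmn2r56, Vmn2r65, Vmn2r75, Vmn2r90, Vmn2r95 and Vmn2r99 were touched in 2.

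Among short motifs, both strands counted and matches of different motifs allowed to overlap, TGANTCA (the AP-1 motif) was in 36 of 117 V2R promoters (30.8%) and in 7.93% of all 27025 promoters. Of the 36, 18 lay in the 22 promoters of the Vmn2r29 to Vmn2r52 cluster and 12 in the 22 of the Vmn2r90 to Vmn2r110 cluster on chromosome 17. The printed promoters of Vmn2r41 and Vmn2r40 hold it, and a match is a description of these letters only. TAATTA (homeodomain) was in 17.1% against 5.31%, and TATAAA (the TATA box) in 23.1% against 14.2%. V2R promoters are richer in A and T than most, and many are near copies of one another. The part of either in these motif shares was not tested. The Ebf (O/E) site of chemosensory genes, in its strict palindromic form, was found in 0 V2R promoters and in 0.914% of all.

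Averaged over libraries, V2R genes held more lamin A/C and less BRG1 than the mean gene in both genotypes. Their mean lamin A/C coverage was 3.25% ± 2.03 in KO and 2.42% ± 1.30 in WT (SD, n = 4 libraries each). Over all protein-coding genes it was 1.23% ± 0.47 in KO and 0.60% ± 0.40 in WT, and over the 13160 genes within the length range of V2R genes 1.00% ± 0.46 in KO and 0.32% ± 0.21 in WT. The V1R genes, the receptors of the apical vomeronasal layer (229 genes), had 1.74% ± 0.90 in KO and 1.203% ± 0.83 in WT, and 1109 olfactory receptor genes had 4.49% ± 2.62 in KO and 3.54% ± 2.23 in WT. The exception by library was KO 3A6 at 16 cycles, where V2R genes were at 1.26%, all genes at 1.41% and those of V2R length at 1.49%. By the means V2R genes lay between the V1R and the olfactory receptor genes in both genotypes. BRG1 covered 0.29% ± 0.09 of V2R windows in KO and 0.53% ± 0.26 in WT (n = 2 each), against 6.08% ± 0.32 in KO and 5.05% ± 3.51 in WT over all genes.

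**Figure D1:**
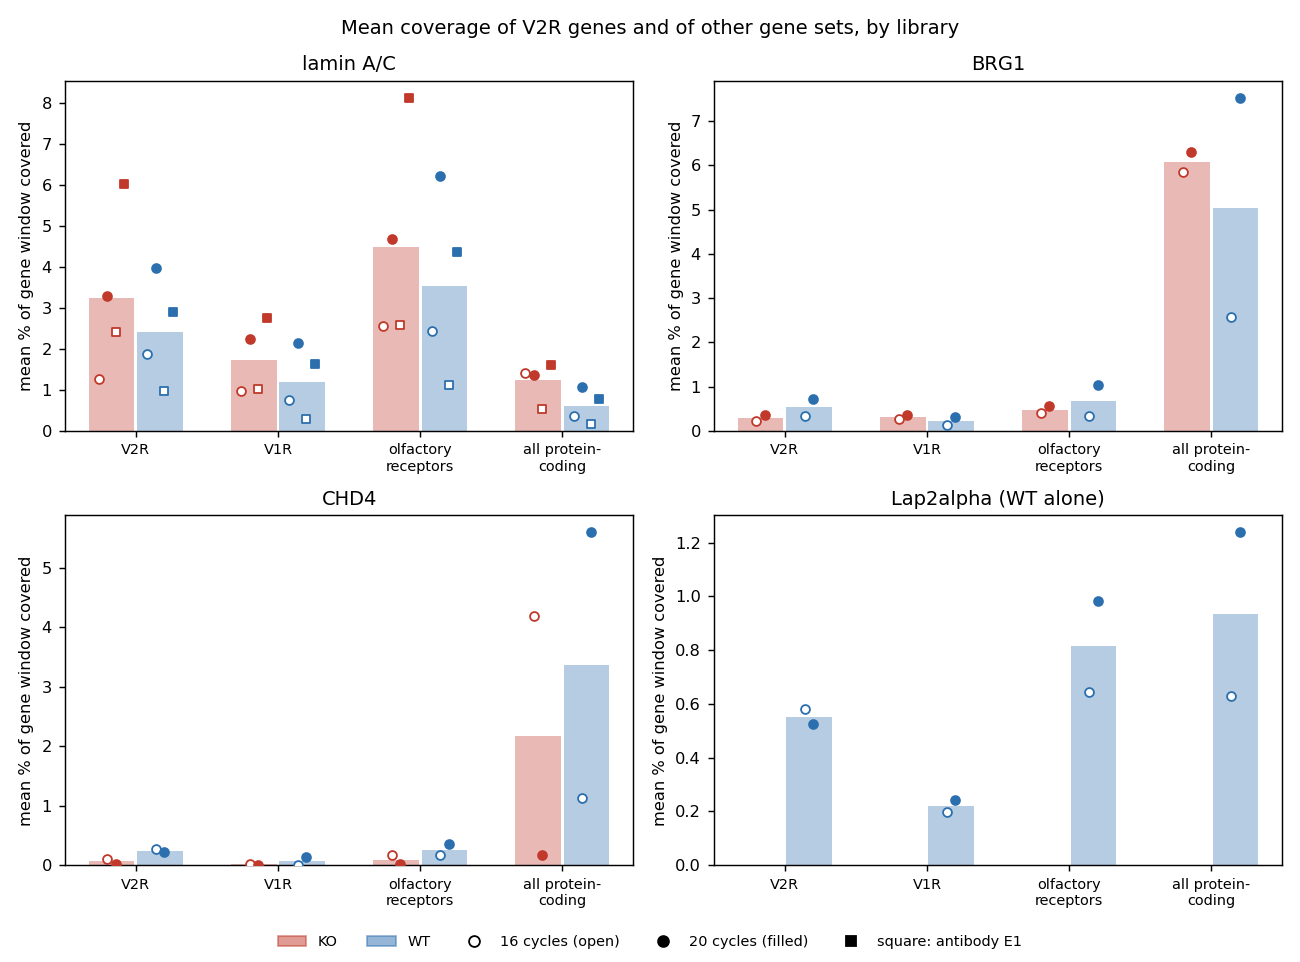
Mean percent of the gene window covered (vertical axes, linear) for V2R, V1R, olfactory receptor and all protein-coding genes, KO left of WT (WT alone for Lap2alpha); bars are means over libraries and points single libraries, with 16 cycles open, 20 cycles filled and antibody E1 square. V2R lamin A/C points reach 6.02% in KO and 3.97% in WT, and V2R BRG1 and CHD4 points stay below 1% while those of all genes reach 7.53%.

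The direction of the lamin A/C difference depended on the antibody. With 3A6, V2R coverage averaged 1.26% in KO and 1.87% in WT at 16 cycles, and 3.29% in KO and 3.97% in WT at 20 cycles. With E1 it averaged 2.41% in KO and 0.97% in WT at 16 cycles, and 6.02% in KO and 2.89% in WT at 20 cycles. Mean V2R coverage was therefore lower in KO in both 3A6 pairs, by 0.60 and 0.68 percentage points, and higher in KO in both E1 pairs, by 1.44 and 3.13. The 3A6 decrease lay mainly on chromosome 17, at -3.48 and -4.97 points over its 32 genes (16 and 20 cycles). It was 0.48 and -0.12 over the 52 genes of chromosome 7, and 0.31 and 2.09 over the 39 genes of other chromosomes. Over the 4 pairs the mean difference of all V2R genes, KO minus WT, was 0.82 ± 1.82 percentage points (SD). This does not stand out from the spread over pairs. Over all genes the difference was above 0 in all 4 pairs, at 0.64 ± 0.36 points.

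The KO lamin A/C lists held more regions than the WT lists in all 4 pairs, so with 3A6 V2R coverage was lower in KO although the list had more regions. By DNA covered, the 3A6 list of KO was the larger at 16 cycles (44.0 Mb against 23.5 Mb in WT). At 20 cycles it was the smaller (60.4 Mb against 66.5 Mb in WT), with narrower regions (median 254 bp against 322 bp). As a share of each list, V2R windows held 0.106% of KO and 0.266% of WT regions with 3A6 at 16 cycles, and 0.197% of KO and 0.242% of WT regions with 3A6 at 20 cycles. The E1 shares were close to each other and higher in KO, 0.283% in KO and 0.253% in WT at 16 cycles, and 0.266% in KO and 0.226% in WT at 20 cycles. The opposite directions of the antibodies were thus also there per region listed. With equal numbers of the widest regions in the lists of each pair, the mean difference over pairs was 0.14 percentage points. The part of list length in the differences was not tested further.

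**Figure D2:**
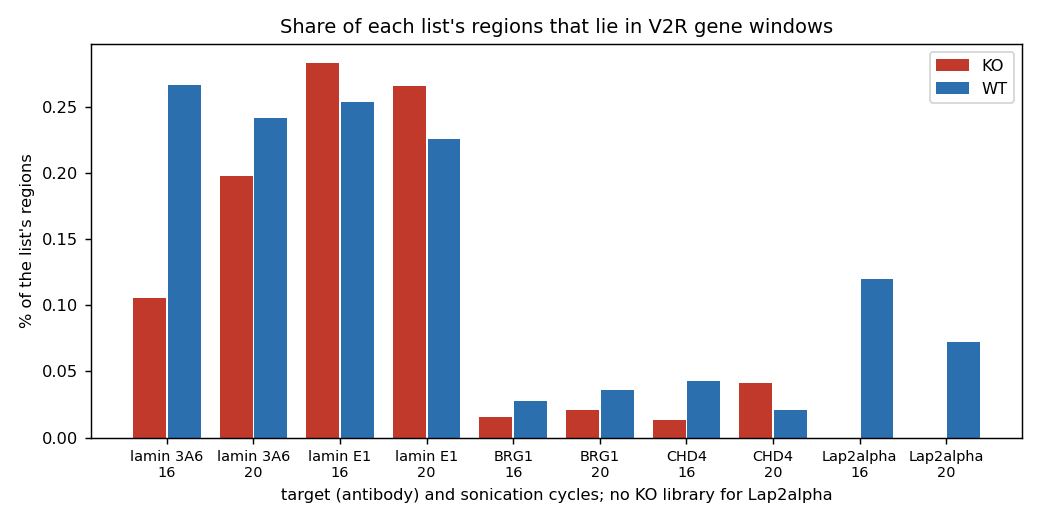
Percent of a list's regions that lie in V2R windows (vertical axis, from 0), for each target, antibody and number of sonication cycles, KO left of WT, and WT alone for Lap2alpha. With 3A6 the KO share is below the WT share (0.106% against 0.266% at 16 cycles), with E1 it is above it (0.283% against 0.253% at 16 cycles).

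Gene by gene, 18 of 123 V2R genes (14.6%) showed higher lamin A/C coverage in KO across all 4 pairs, where 7.92% of all protein-coding genes and 7.83% of those of V2R length did. Only 3 V2R genes (2.44%) had less in all 4 pairs, where 0.565% of all genes and 0.509% of those of V2R length did. By antibody, 23 V2R genes (18.7%) were higher in KO in both 3A6 pairs, against 31.5% of all genes, and 29 (23.6%) were lower in both, against 3.39%. In both E1 pairs 62 (50.4%) were higher in KO, against 13% of all genes, and 5 (4.07%) were lower, against 0.932%. Lower in both 3A6 pairs and at once higher in both E1 pairs were 15 genes (12.2%), against 1.29% of all genes. V2R genes hold more lamin A/C regions than most genes and share clusters, which bears on how easily a gene meets such a rule, so these shares are a description. No lamin A/C region at all was found in 26 V2R genes (21.1%), against 30.2% of all genes and 20.6% of those of V2R length. A region in all 8 lamin A/C lists was found in 32 V2R genes (26.0%), against 3.95% of all genes and 2.98% of those of V2R length.

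**Figure D3:**
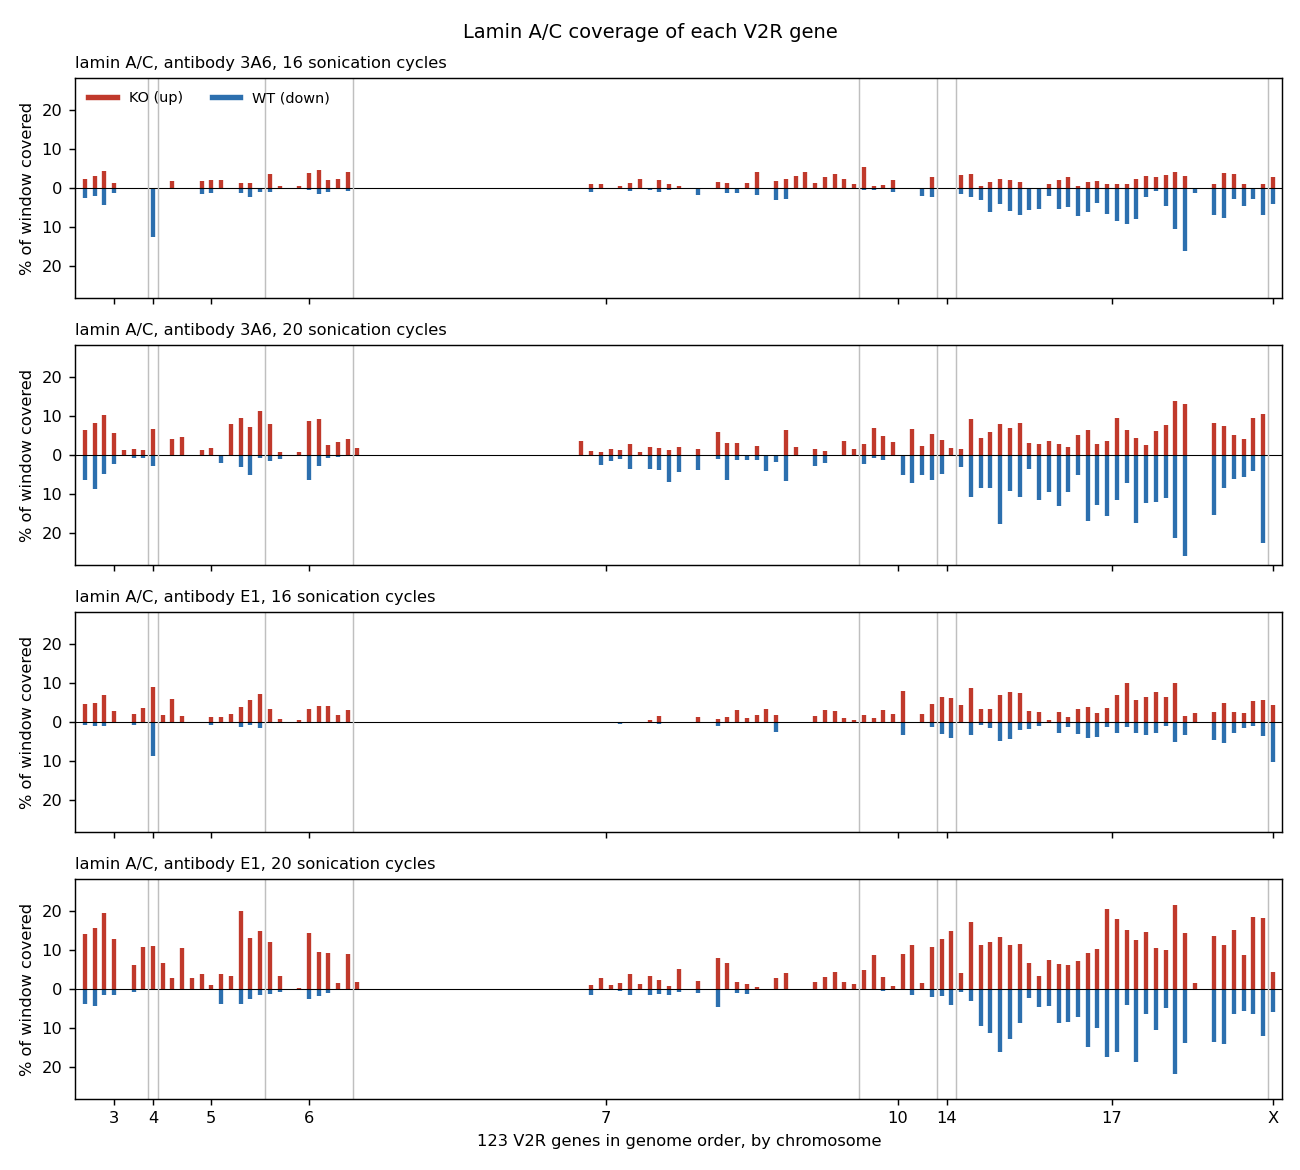
Percent of each V2R window covered by lamin A/C regions (vertical axes, linear), KO upward and WT downward from 0, for the 123 genes in genome order with chromosomes marked; each panel is 1 antibody and sonication length, and each bar is 1 library. The long downward WT bars of chromosome 17 stand over shorter KO bars with 3A6, KO bars exceed WT bars on chromosomes 3, 5 and 6 with E1, and 24 genes of chromosome 7 are nearly empty in all panels.

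The clusters fell into different patterns. In 5 of 12, with 45 genes, mean lamin A/C coverage was higher in KO in all 4 pairs, in none was it lower in all 4, and in 7 clusters with 72 genes at least 1 pair went the other way or showed no difference. Counted by the covered length of all windows of a cluster instead of the mean over its genes, 4 of 12 were higher in KO in all 4 pairs, since Vmn2r1 to Vmn2r7 with 3A6 at 16 cycles was then at 1.73% in KO and 1.89% in WT. Chromosomes that hold such clusters were partly higher in KO as a whole. Chromosomes 6, 7 and 10 were so in all 4 pairs, by means of 1.24, 0.67 and 0.91 percentage points. Chromosome 3 was higher in KO in 2 pairs and chromosome 5 in 3. The cluster of Vmn2r19 to Vmn2r27 on chromosome 6 (9 genes, chr6:123308333-124231784) held the most genes, 7 of its 9, that were higher in KO in all 4 pairs. With 3A6 its mean coverage was 2.41% and 4.18% in KO at 16 and 20 cycles, against 0.54% and 1.48% in WT. With E1 it was 2.33% and 6.58% in KO, against 0 and 0.83% in WT. The KO values lay above the WT values at every antibody and length.

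Vmn2r23 had the most lamin A/C of the chromosome 6 cluster. With 3A6 it was 3.79% and 8.78% covered in KO, against 0.57% and 6.34% in WT (16 and 20 cycles, as in all pairs of values below). With E1 it was 3.29% and 14.4% covered in KO, against 0 and 2.51% in WT. The groups overlapped over all libraries but not within any pair. Vmn2r19 was 3.59% and 8.06% covered in KO with 3A6, against 1.13% and 1.58% in WT, and 3.46% and 12.1% in KO with E1, against 0 and 1.34% in WT. Every KO value of Vmn2r19 was above every WT value. Vmn2r24, Vmn2r25 and Vmn2r27 had the same order in every pair, with mean differences of 5.26 ± 2.16, 3.79 ± 3.13 and 4.90 ± 2.67 percentage points (SD, n = 4 pairs). Vmn2r26, the receptor known to detect MHC class I-binding peptides in mouse vomeronasal neurons, was 2.27% and 3.38% covered in KO with 3A6, against 0 and 0.54% in WT, and 1.74% and 1.51% in KO with E1, against 0 at both lengths in WT. Vmn2r22 was the lowest of the 7, at 0.35% to 0.85% in KO and 0 in all 4 WT lists. Vmn2r21 of this cluster, 40899 bp long, held no region of any target in any list.

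On chromosome 3 the cluster of Vmn2r1 to Vmn2r7 (7 genes, chr3:64078172-64719602) is the group broadly co-expressed with the variable V2Rs. Its mean coverage was 1.56% and 5.01% in KO with 3A6, against 1.44% and 3.39% in WT, and 3.58% and 11.3% in KO with E1, against 0.48% and 1.69% in WT. The excess in KO was thus small with 3A6 and large with E1. Vmn2r3 was highest, 4.39% and 10.35% covered in KO with 3A6 against 4.31% and 4.92% in WT, and 7.04% and 19.3% in KO with E1 against 1.11% and 1.61% in WT. Vmn2r4 was likewise higher in KO in all 4 pairs, by 4.48 ± 4.91 points. Vmn2r1 and Vmn2r2 were lower in KO in 1 of 4 pairs each (3A6 at 16 cycles for Vmn2r1 and 3A6 at 20 cycles for Vmn2r2) and higher in the others. In the same cluster Vmn2r7 was 3.56% and 10.8% covered in KO with E1 and 0 at both lengths in WT, with 0 and 1.22% in KO against 0 and 0.64% in WT with 3A6. Vmn2r6 reached 6.1602% in KO with E1 at 20 cycles against 0.82% in WT, and Vmn2r5 held a lamin A/C region only in KO with 3A6 at 20 cycles (1.40%).

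The other clusters higher in KO in all 4 pairs were those of Vmn2r8 to Vmn2r17 on chromosome 5 (10 genes, 3.45% ± 2.49 in KO and 0.72% ± 0.36 in WT), Vmn2r65 to Vmn2r79 on chromosome 7 (15 genes, 2.03% ± 0.43 in KO and 0.81% ± 0.75 in WT) and Vmn2r80 to Vmn2r83 on chromosome 10 (4 genes, 3.28% ± 1.36 in KO and 0.43% ± 0.46 in WT; SD over 4 libraries each). Vmn2r16 on chromosome 5 was 1.41% and 9.50% covered in KO with 3A6, against 1.14% and 3.15% in WT, and 3.75% and 19.9% in KO with E1, against 1.12% and 3.67% in WT. Its neighbour Vmn2r9 was 1.71% to 5.80% covered in the 4 KO lists and 0 in the 4 WT lists. Vmn2r80 on chromosome 10 was 5.26% and 2.82% covered in KO with 3A6, against 0.57% and 2.33% in WT, and 1.81% and 4.88% in KO with E1, against 0 at both lengths in WT. Vmn2r81 had the highest mean of that cluster but was 0.41% in KO against 0.59% in WT with 3A6 at 16 cycles. In the chromosome 7 cluster Vmn2r65 was highest, with 5.84% in KO and 1.03% in WT with 3A6 at 20 cycles, and lower in KO only with E1 at 16 cycles (0.77% in KO and 1.07% in WT).

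**Figure D4:**
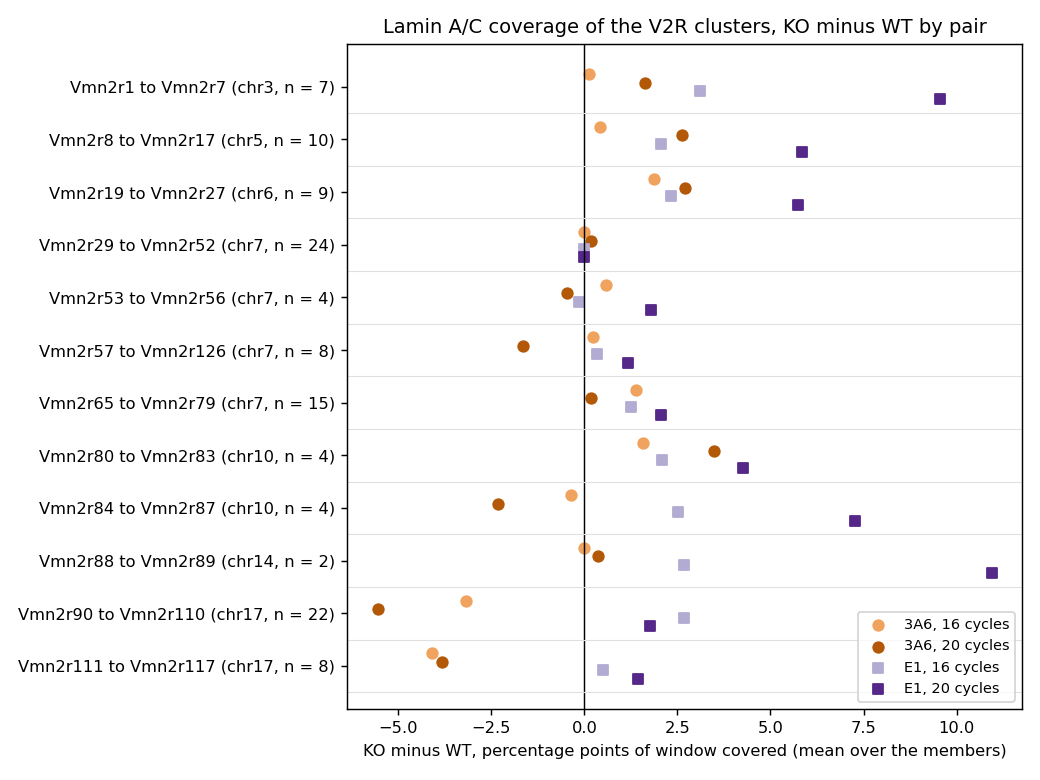
KO minus WT difference in mean lamin A/C coverage (horizontal axis, percentage points) for the 12 V2R clusters of 2 or more genes; circles are antibody 3A6, squares antibody E1, light symbols 16 cycles and dark symbols 20 cycles, 1 pair of libraries each. All 4 symbols lie right of 0 in 5 clusters, and in both chromosome 17 clusters the 3A6 circles lie left of 0 (down to -5.54) and the E1 squares right of it.

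In WT cells the V2R genes of chromosome 17 were the most covered by lamin A/C. Its 32 V2R genes averaged 5.28% and 10.8% in WT with 3A6 and 2.38% and 9.16% with E1, where the 39 genes outside chromosomes 7 and 17 averaged 1.15% and 2.14% in WT with 3A6 and 0.97% and 1.19% with E1. In KO the chromosome 17 genes averaged 1.80% and 5.80% with 3A6 and 4.55% and 11.3% with E1. With 3A6, 24 of the 32 were lower in KO in both pairs and 0 were higher in both. With E1, 17 of the 32 were higher in KO in both pairs and 3 were lower in both. Among the 1016 other genes of chromosome 17, 4.92% were lower and 15.6% higher in both 3A6 pairs, and 11.1% were higher and 0.591% lower in both E1 pairs. Regions covered 1.47% and 2.73% of the whole chromosome in KO with 3A6, against 1.53% and 4.45% in WT, so the chromosome as a whole was also lower in KO with this antibody, mainly at 20 cycles. This was not particular to chromosome 17. As a whole, chromosomes 3 and X were also lower in KO in both 3A6 pairs, and chromosomes 4 and 5 at 20 cycles alone. Chromosomes 6, 7, 10 and 14 were higher in both.

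In the cluster of Vmn2r90 to Vmn2r110 (22 genes, chr17:17703941-20596259) every gene held a lamin A/C region at 20 cycles in both genotypes with both antibodies. With 3A6 at 20 cycles the lowest, median and highest gene were at 1.65%, 4.79% and 9.54% in KO, against 3.09%, 10.8% and 17.7% in WT. With E1 at 20 cycles they were at 3.43%, 10.8% and 20.5% in KO, against 0.61%, 8.72% and 18.7% in WT. The ranges overlapped with both antibodies, and the KO median was below the WT median with 3A6 and above it with E1. The cluster of Vmn2r111 to Vmn2r117 (8 genes, chr17:22547941-23479597) averaged 2.104% and 6.46% in KO with 3A6, against 6.196% and 10.296% in WT, and 3.31% and 10.8% in KO with E1, against 2.80% and 9.33% in WT.

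The 3 genes lower in KO in all 4 pairs were all on this chromosome. Vmn2r102 was 1.60% and 6.44% covered in KO with 3A6, against 6.12% and 16.9% in WT, and 3.88% and 9.10% in KO with E1, against 4.12% and 14.7% in WT. Its E1 difference at 16 cycles was small beside the 3A6 differences. Vmn2r99 was 2.11% and 2.73% covered in KO with 3A6, against 5.28% and 12.9% in WT, and 2.65% and 6.41% in KO with E1, against 2.73% and 8.67% in WT. Vmn2r115, known as the receptor of the juvenile pheromone ESP22, was 3.96% and 7.34% covered in KO with 3A6, against 7.75% and 8.50% in WT, and 4.91% and 11.15% in KO with E1, against 5.40% and 14.0% in WT. Mean differences were -5.20 ± 4.197, -3.93 ± 4.37 and -2.08 ± 1.53 percentage points for Vmn2r102, Vmn2r99 and Vmn2r115. The neighbouring Vmn2r116, the receptor of the male peptide ESP1, differed in direction among the pairs, with 15.2% in KO and 6.34% in WT with E1 at 20 cycles and 5.23% in KO and 5.98% in WT with 3A6 at 20 cycles.

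By the mean over the 8 lamin A/C lists, Vmn2r111 and Vmn2r112 had the highest coverage of all V2R genes (13.5% and 11.4%). Vmn2r112 was 3.15% and 13.1% covered in KO with 3A6, against 16.1% and 25.7% in WT, and 1.60% and 14.4% in KO with E1, against 3.22% and 13.7% in WT. It is named here for these values. Vmn2r111 was 4.163% and 13.9% covered in KO with 3A6, against 10.5001% and 21.1% in WT, and 9.93% and 21.5% in KO with E1, against 5.06% and 21.6% in WT. At 20 cycles E1 coverage of Vmn2r111 was nearly equal in the genotypes. Vmn2r105, whose promoter is printed above, had the most lamin A/C of the larger cluster, 1.12% and 9.54% in KO with 3A6 against 8.34% and 11.4% in WT, and 6.98% and 17.8% in KO with E1 against 2.89% and 16.1% in WT. No base of any V2R window was in all 8 lamin A/C lists. Stretches in 7 of 8 lay in Vmn2r111 (chr17:22551471-22551711) and in Vmn2r114 (chr17:23293946-23294099, with a further 9 bp close by).

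The lone genes of chromosome 17, Vmn2r118 and Vmn2r120, differed from each other. Vmn2r120 was 1.15% and 10.58% covered in KO with 3A6, against 6.95% and 22.3% in WT, and 5.53% and 18.2% in KO with E1, against 3.50% and 12.1% in WT. Vmn2r118 was 0 and 9.47% covered in KO with 3A6, against 2.82% and 3.99% in WT, and 5.48% and 18.5% in KO with E1, against 0.88% and 6.47% in WT. Of the other lone genes, Vmn2r18 on chromosome 5 was 11.3% in KO and 0.73% in WT with 3A6 at 20 cycles and 14.9% in KO and 1.45% in WT with E1 at 20 cycles, but 0 in KO and 0.998% in WT with 3A6 at 16 cycles. Vmn2r129 on chromosome 4 and Vmn2r121 on chromosome X, the shortest of the lone genes, held 0 to 4 lamin A/C regions per list. Vmn2r129 was 0 in KO and 12.4% in WT with 3A6 at 16 cycles and 11.1% in KO and 0 in WT with E1 at 20 cycles, and Vmn2r121 was 4.28% in KO and 10.14% in WT with E1 at 16 cycles. Vmn2r28 on chromosome 7 held lamin A/C regions only in KO at 20 cycles (1.79% with 3A6 and 1.91% with E1).

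The 24 genes of Vmn2r29 to Vmn2r52 were nearly empty. Mean lamin A/C coverage was 0.07% ± 0.09 in KO and 0.03% ± 0.03 in WT over the genes, and 0.05% ± 0.02 in KO and 0.03% ± 0.02 in WT over the DNA between them. The 1 Mb on each side had 1.34% ± 0.75 in KO and 1.05% ± 1.18 in WT, and the whole chromosome 1.26% ± 0.60 in KO and 0.59% ± 0.56 in WT. Of the 25 V2R genes (20.3%) with no region of any target in any of the 18 lists, 21 were in this cluster, and 6.54% of all genes and 2.59% of those of V2R length were empty in this way. The 3 that held any were Vmn2r29, Vmn2r51 and Vmn2r52, the outermost genes of the cluster at either end, and Vmn2r52 had the highest lamin A/C mean, at 0 to 1.01% in KO and 0 to 1.54% in WT. The highest single lamin A/C value of the cluster lay in another gene, 3.72% in KO with 3A6 at 20 cycles. Of the 22 promoters known in this cluster, 12 were at least 98% identical to that of another V2R gene. Those of Vmn2r43 (79.0%), Vmn2r37 and Vmn2r42 (84.7% each) were less alike, and these genes were empty too. In Vmn2r111 to Vmn2r117, 5 of the 8 promoters were at least 98% identical to another (median 98.2%). There 6 of the 8 genes held a region in all 8 lamin A/C lists. The other two, Vmn2r113 with regions in 3 lists and Vmn2r-ps130 with none in any, were sparse or empty there too. These identities are between promoters of V2R genes alone and were not computed over the gene bodies, so they do not show how unique a whole window is. How reads that match several copies were handled is not given in the sources used here, so values of such genes are uncertain. The part of copy identity in them was not tested.

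**Figure D5:**
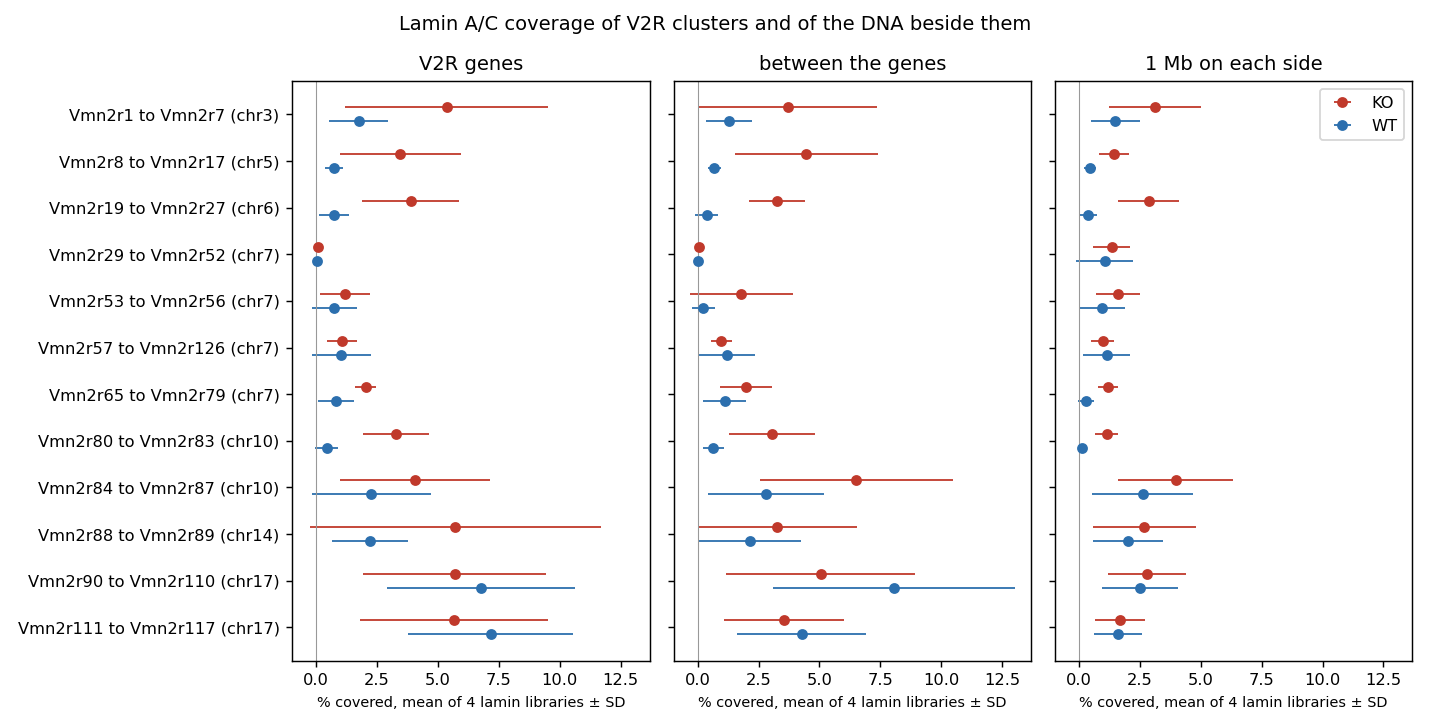
Percent covered by lamin A/C regions (horizontal axes, mean of 4 libraries with SD bars) for the V2R genes of each cluster, the DNA between them and the 1 Mb on each side, KO above WT. The cluster of Vmn2r29 to Vmn2r52 is near 0 inside (0.07% in KO and 0.03% in WT over the genes) but not in its surroundings (1.34% in KO and 1.05% in WT).

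The remaining clusters lay between these patterns. Vmn2r53 to Vmn2r56 on chromosome 7 averaged 1.19% ± 1.02 in KO and 0.74% ± 0.92 in WT, with Vmn2r56 the highest, and Vmn2r57 to Vmn2r126 1.05% ± 0.63 in KO and 1.03% ± 1.22 in WT, with Vmn2r59 the highest. Vmn2r84 to Vmn2r87 on chromosome 10 went the way of chromosome 17, with 0.71% and 3.62% in KO against 1.08% and 5.93% in WT with 3A6, and 3.64% and 8.18% in KO against 1.12% and 0.90% in WT with E1. Vmn2r87, its most covered gene, was 4.55% and 10.7% in KO and 1.28% and 2.097% in WT with E1. Vmn2r88 and Vmn2r89 on chromosome 14 had no 3A6 region at 16 cycles in either genotype. Vmn2r88, the mouse receptor known to detect hemoglobin, was 6.35% and 12.8% covered in KO with E1, against 3.04% and 1.65% in WT.

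The DNA around V2R genes also differed. For Vmn2r19 to Vmn2r27 the difference, KO minus WT, was 3.16 ± 1.76 points over the genes, 2.90 ± 1.10 between them and 2.50 ± 1.05 in the 1 Mb on each side, and 1.24 ± 0.60 over chromosome 6. For Vmn2r90 to Vmn2r110 with 3A6 it was -3.18 and -5.54 points over the genes, -3.22 and -8.88 between them, and -0.48 and -1.40 in the flanks. With E1 it was 2.67 and 1.75 over the genes, 0.87 and -0.79 between them, and 1.35 and 1.62 in the flanks. With 3A6 the DNA between the genes of this cluster thus differed at least as much as the genes, and the flanks less. This was not so in the other clusters lower in KO with 3A6. For Vmn2r111 to Vmn2r117 the 3A6 difference was -4.09 and -3.84 points over the genes and -1.82 and -3.69 between them. For Vmn2r84 to Vmn2r87 it was -0.36 and -2.31 over the genes but 2.58 and 2.28 between them.

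The same DNA was often not in the lists of both genotypes. With 3A6 at 20 cycles, 31.5% of the 448 KO regions in V2R windows overlapped a WT region (95% Wilson interval 27.3% to 35.9%), and 31.9% of the 442 WT regions a KO region (27.7% to 36.4%). Genome-wide the shares were 23.2% of KO and 28.6% of WT regions. With E1 at 20 cycles they were 31.2% of 621 KO regions (27.7% to 34.99%) and 59.2% of 326 WT regions (53.8% to 64.4%) in V2R windows, and 31.6% of KO and 51.2% of WT regions genome-wide. The antibodies shared still less within a genotype, since 21.4% of KO and 21.5% of WT 3A6 regions in V2R windows overlapped an E1 region at 20 cycles, and 10.55% of KO and 6.11% of WT ones did at 16 cycles. Genome-wide these shares were 15.3% of KO and 22.0% of WT regions at 20 cycles, and 3.55% of KO and 7.29% of WT regions at 16 cycles. Intervals cover counting error only, and regions of 1 gene are not independent. Lamin A/C regions in V2R windows were about as wide as elsewhere, for E1 at 20 cycles with a median of 352 bp in KO and 305 bp in WT inside V2R windows and 332 bp in KO and 316 bp in WT over the whole lists. BRG1 regions there were narrower, at 16 cycles with a median of 438 bp in KO and 430 bp in WT inside V2R windows and 608 bp in KO and 526 bp in WT over the whole lists. Coverage was spread along the gene: over 10 equal bins of the gene body from start to end (117 genes of known strand), the E1 mean at 20 cycles ran from 5.11% to 7.73% in KO and from 1.74% to 4.38% in WT.

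BRG1 and CHD4 were sparse on V2R genes. BRG1 coverage averaged 0.23% and 0.36% in KO against 0.34% and 0.71% in WT, and a BRG1 region was found in 11 and 27 of the 123 genes in KO, against 12 and 43 in WT. Over all genes those shares were 68.6% and 73.8% in KO, against 51.3% and 77.8% in WT. CHD4 averaged 0.10% and 0.03% in KO against 0.27% and 0.23% in WT, where all genes averaged 4.19% and 0.17% in KO against 1.14% and 5.602% in WT. At 16 cycles all genes were thus higher in KO and V2R genes lower, and at 20 cycles both were lower. The KO CHD4 list at 20 cycles was by far the shortest, with 7283 regions against 109769 in WT, and its part in the CHD4 difference was not tested; at 16 cycles the KO list was the longer one, and V2R coverage was still the lower. Only 1 V2R gene, Vmn2r85, had more BRG1 in KO in both pairs, where 22.7% of all genes did, and 7 had less (Vmn2r1, Vmn2r2, Vmn2r11, Vmn2r78, Vmn2r79, Vmn2r124 and Vmn2r129), where 5.96% of all genes did. No V2R gene had more CHD4 in KO in both pairs, where 0.478% of all genes did, and 5 had less (Vmn2r11, Vmn2r78, Vmn2r79, Vmn2r93 and Vmn2r117), where 6.27% did. As 108 and 72 of the 123 genes held no BRG1 region in either genotype at 16 and 20 cycles, most could not differ.

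The remodellers that were there came together at a few sites. Vmn2r13 on chromosome 5 had the most, 5.99% and 5.67% covered by BRG1 in KO against 5.03% and 10.32% in WT, and 6.40% and 0 covered by CHD4 in KO against 5.62% and 6.79% in WT. Vmn2r79 on chromosome 7 was 4.49% and 5.18% covered by BRG1 in KO against 5.46% and 8.90% in WT, and 0.46% and 0 by CHD4 in KO against 5.28% and 5.79% in WT. CHD4 on Vmn2r79 was thus lower in KO at both lengths, and on Vmn2r13 at 20 cycles alone. Vmn2r26 was 4.25% and 2.66% covered by BRG1 in KO against 3.69% and 4.51% in WT. Vmn2r11 was 2.98% and 2.03% covered by BRG1 in KO against 7.52% and 9.57% in WT, and 0 by CHD4 in both KO lists against 4.47% and 3.11% in WT. Vmn2r85 had BRG1 at 5.81% and 4.27% in KO and 4.43% and 3.48% in WT, with no CHD4 region in any list.

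At least 7 of the 8 BRG1 and CHD4 lists shared 4 stretches in V2R windows, in Vmn2r13 (chr5:109158588-109159448 and chr5:109167345-109167428), Vmn2r26 (chr6:124048580-124049019) and Vmn2r79 (chr7:87023747-87023944). With 6 of 8 lists the sites were in 5 genes, and that of Vmn2r29 (chr7:7278364-7278517) was the only one at a gene start, inside the promoter printed above. The others lay 2411 to 18533 bp from the nearer gene end.

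Lap2alpha, mapped in WT alone, covered 0.58% and 0.52% of V2R windows, against 0.63% and 1.24% over all genes. It was found in 45 and 44 of the 123 genes (36.6% and 35.8%), against 29.6% and 53.2% of all genes. Among genes of V2R length it was found in 34.5% and 65.0%. The highest means were in Vmn2r11 (4.61% and 3.94%), Vmn2r10 (6.70% and 0), Vmn2r129 (2.87% and 3.19%), Vmn2r111 (4.61% and 1.19%) and Vmn2r100 (2.43% and 2.62%). Vmn2r10 thus rests on 1 library. By cluster, Lap2alpha coverage was highest over Vmn2r111 to Vmn2r117 (1.50% and 0.96%), Vmn2r8 to Vmn2r17 (1.55% and 0.73%) and Vmn2r90 to Vmn2r110 (1.05% and 1.03%).

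Other genes of the V2R pathway were taken from a list. The Esp pheromone genes (15 genes, all on chromosome 17) had the same order of genotypes as the V2R genes of that chromosome with each antibody, at 1.53% and 5.65% lamin A/C coverage in KO against 6.21% and 13.9% in WT with 3A6, and 3.88% and 11.5% in KO against 2.17% and 8.79% in WT with E1. None of the 15 differed one way in all 4 pairs. Other sets of chromosome 17 did not share this order. The 7 formyl peptide receptor genes were at 0 and 7.45% in KO against 3.08% and 6.004% in WT with 3A6, and at 4.24% and 8.77% in KO against 4.57% and 8.38% in WT with E1. The 10 MHC partner genes (B2m and 9 H2-M genes, of which the H2-M genes lie on chromosome 17 and are co-expressed with V2Rs) were higher in KO in all 4 pairs, at 1.07% and 2.01% in KO against 0.40% and 1.54% in WT with 3A6. Gene by gene, where 7.92% of all genes were higher and 0.565% lower in KO in all 4 pairs, 0 of 22 Mup pheromone genes were higher and 1 was lower, and 0 of the 10 MHC partner genes were either. The transduction genes (10 genes, among them Trpc2, the channel of vomeronasal neurons, and Gnao1, their G protein alpha subunit) had 1.15% ± 0.57 lamin A/C in KO and 0.02% ± 0.02 in WT, with 2 of 10 higher in KO in all 4 pairs. One of these was Kcnj3, a potassium channel subunit gene, at 2.27% and 3.15% in KO against 0.33% and 0 in WT with 3A6. Trpc2 itself had none in either genotype. Of 9 transcription factor genes of the basal lineage, 1 was higher in KO in all 4 pairs and 0 were lower.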

How the data were processed

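ChIP-seq region lists of mouse dermal fibroblasts were used, 1 per genotype, antibody and sonication length, with groups taken from the sample titles. The authors deposited each list as interval coordinates (chromosome, start and end in base pairs; no score or other measure), so no signal, height or significance was available and read depth is unknown. Coordinates are on GRCm38, and the tools were HOMER 4.11.1, MACS2 2.1.4, bedtools, SAMtools and deepTools, per the submitters' processing notes. The sources used here give no role, threshold or control, and nothing on reads with several matches. Because coverage of a gene also depends on how many regions a list holds and how wide they are, it is not an amount of protein.

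Intervals of width 0 and on the mitochondrial genome were dropped, and overlapping intervals, present in 7 of 18 lists, were merged into regions. Percent coverage of gene windows was computed with Python 3.11.15, numpy 2.4.6 and pandas 2.3.3. Of 21887 protein-coding genes, 116 lie outside the span of the lists and were left out. KO minus WT was taken within each matched pair, and a gene was called when it differed one way in all pairs of a target or antibody. No test was run, as each combination is a single library. The overlap code was tested on simulated regions, with the right value in 500 of 500 windows. Clusters join neighbours less than 1 Mb apart.

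Named genes are the most covered of each cluster, the largest differences in all 4 lamin A/C pairs, the highest BRG1, CHD4 and Lap2alpha coverage, Vmn2r1 to Vmn2r7, lone genes and promoters touched in 2 or more lists; others were chosen after their values were seen. The genes, lists and rules were chosen with earlier results of these data known. Alternatives covered window size, region width, equal list lengths, weighting, clusters, antibodies, cycles and single pairs; leaving out Vmn2r29 to Vmn2r52 or chromosome 17, and counting Vmn2r122 at 0, were added after seeing the data.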

Additional observations from a re-analysis of the deposited data

Results flagged for a closer look

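The antibodies 3A6 and E1 gave lamin A/C differences of opposite sign in both of their pairs, over all V2R genes and in 3 clusters; whether they differ was not tested, since each pair is 1 KO and 1 WT library. Over the 123 genes the mean of KO minus WT was -0.64 percentage points with 3A6 and 2.29 with E1. With 3A6 it was below 0 at both sonication lengths on chromosome 17, and at 20 cycles alone on chromosome 7. Over the V2R genes of other chromosomes it was above 0 at both lengths. For Vmn2r84 to Vmn2r87 on chromosome 10 it was -1.34 with 3A6 and 4.90 with E1. For Vmn2r90 to Vmn2r110 on chromosome 17 it was -4.36 with 3A6 and 2.21 with E1, and for Vmn2r111 to Vmn2r117 it was -3.96 with 3A6 and 0.97 with E1.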

How the results depend on the processing

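The mean lamin A/C difference (KO minus WT, 0.82 percentage points over all pairs) was above 0 under all settings run other than 3A6 alone, where it was -0.64, and ranged from 0.0535 to 1.32 when 1 pair was left out, lowest without the E1 pair at 20 cycles. Genes higher in KO in all pairs used were 9 with equal numbers of the widest regions (3.67% of all genes). They were 32 with 16 cycles alone (16.1%), 36 with 20 cycles alone (13.8%) and 62 with E1 alone (13.0%). Without the 3A6 pair at 16 or 20 cycles they were 30 (9.49%) and 31 (9.58%). Without the E1 pair at 16 or 20 cycles they were 22 (10.7%) and 18 (12.4%). Those lower in KO were 5 with the gene body alone (0.487% of all genes), 6 with 5 kb on each side (0.707%), 7 with equal numbers of regions (1.04%), 8 with 16 cycles alone (1.28%), 11 with 20 cycles alone (2.69%), 29 with 3A6 alone (3.39%), 5 with E1 alone (0.932%), 0 without chromosome 17, and 4 to 9 with 1 pair left out (0.611% to 1.40%). The CHD4 difference (-0.182) was -0.144 with regions of at least 200 bp, -0.0979 with equal numbers of regions, -0.102 with 200 bp at region centres, -0.302 with equal cluster weights, -0.225 without Vmn2r29 to Vmn2r52 and -0.208 without chromosome 17. Lap2alpha coverage (0.553%) was 0.624% with 5 kb on each side, 0.443% with regions of at least 200 bp, 0.434% at region centres, 0.795% with equal cluster weights, 0.681% without Vmn2r29 to Vmn2r52 and 0.359% without chromosome 17. The BRG1 difference (-0.235) kept its sign under every setting run and shifted by less than its SD of 0.165 over 2 pairs. For 16 or 20 cycles alone this was fixed in advance, since each is 1 of those 2 pairs. The cause of these shifts was not tested beyond the construction of each setting. KO and WT were matched on antibody and cycles throughout, and the labels number no replicates to pair beyond that. Without read depth, an empty gene cannot be told from one too poorly sampled to give a region.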

Other observations

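RefSeq also lists 148 Vmn2r pseudogenes within the span of the lists. No comparison above used them as a gene set, but those between V2R genes are part of the DNA between the genes compared above. The mean lamin A/C coverage of the pseudogenes was 0.91% in KO and 1.36% in WT with 3A6 at 16 cycles, and 2.21% in KO and 3.65% in WT with 3A6 at 20 cycles. With E1 it was 1.31% in KO and 1.08% in WT at 16 cycles, and 4.24% in KO and 2.91% in WT at 20 cycles. The order of the genotypes was thus that of the intact V2R genes with each antibody. Many pseudogenes lie within the clusters of intact genes, so they are not an independent set.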
